A study of Mus musculus with 16 samples.

Results

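Homozygous App knock-in mice on a high-fat diet (App_HFD) were compared with wild-type mice on a control diet (WT_NCD), the pair of groups that differ in amyloid and in diet together. The comparison used 8 of the 16 libraries of the series, 4 in each group, and its members were all expressed genes: 21768 of the 53801 genes in the deposited table passed the filter on low counts. The question put to each gene was whether an effect of genotype and an effect of diet added up in it. Each library held poly(A) RNA of oligodendrocyte lineage cells that had been taken from perfused brain by magnetic sorting.

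App_HFD mice (replicates 547, 559, 560 and 561) carried App NL-G-F on both alleles, a knock-in with a humanised amyloid-β sequence and the Swedish, Beyreuther/Iberian and Arctic mutations on a C57BL/6 background. They ate a diet that drew 60.0% of energy from fat and held 524 kcal per 100 g. WT_NCD mice (replicates 4, 5, 11 and 12) were C57BL/6J Jcl on a control diet that drew 12.5% of energy from fat and held 345.0 kcal per 100 g. The other two groups served to split the difference: WT_HFD (replicates 2, 3, 15 and 16), wild type with the high-fat food, and App_NCD (replicates 537, 538, 545 and 553), the knock-in with the control food. All mice were males, were fed from 2 months of age for 6 months and were sampled at 8 months. The knock-in was kept as an inbred line while wild-type mice were bought from a supplier, so the source of the mice and the genotype cannot be told apart. The 2 diets were different products, so fat cannot be told apart from their other ingredients. In the lists of 4 values below, libraries stand in the order of replicates given here.

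Oligodendrocytes wrap axons in myelin, a membrane rich in cholesterol, saturated and monounsaturated fatty acids and sphingolipids, most of which they make themselves. In App NL-G-F brain, amyloid plaques form from the endogenous App locus without overexpression, and microglia around plaques take on a state marked by genes for lysosomes, lipid handling and phagocytosis. A high-fat diet brings obesity and insulin resistance in C57BL/6 mice and can alter lipid supply and stress hormone signals to the brain.

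Promoter sequences are shown for the genes that stand for both outcomes. In Cdkn1a and Sh2b2 both effects passed with the same sign, and Cst7 and Itgax rose in App_HFD without a called diet part. Each run is the 250 bases before a RefSeq start (GRCm38.p6), read 5′ to 3′ on the gene's strand. Capitals mark matches, on either strand, to ACATGT, which holds the centre of a p53 half-site, to GGAAGT, the core bound by PU.1 and other ETS factors, or to GGGCGG, the GC box bound by Sp1. These motifs were chosen after the sequences had been read, and a match is a description, not a site shown to be bound.
Cdkn1a, chr17:29090729-29090978, plus strand: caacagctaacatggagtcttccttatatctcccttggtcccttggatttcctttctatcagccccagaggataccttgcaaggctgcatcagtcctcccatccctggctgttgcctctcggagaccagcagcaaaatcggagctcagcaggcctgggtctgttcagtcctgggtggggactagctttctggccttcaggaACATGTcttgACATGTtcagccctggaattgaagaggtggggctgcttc
Sh2b2, chr5:136244941-136245190, minus strand: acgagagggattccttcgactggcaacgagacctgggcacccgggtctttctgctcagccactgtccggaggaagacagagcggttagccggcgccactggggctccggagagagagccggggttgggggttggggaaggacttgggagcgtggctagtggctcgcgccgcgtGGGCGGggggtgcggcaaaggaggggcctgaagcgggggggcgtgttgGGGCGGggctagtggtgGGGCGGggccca
Cst7, chr2:150570165-150570414, plus strand: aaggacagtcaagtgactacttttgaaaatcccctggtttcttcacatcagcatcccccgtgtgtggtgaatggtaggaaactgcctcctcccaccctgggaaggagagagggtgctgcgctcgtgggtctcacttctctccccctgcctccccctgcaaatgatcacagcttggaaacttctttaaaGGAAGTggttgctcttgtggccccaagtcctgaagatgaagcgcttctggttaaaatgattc
Itgax, chr7:128129300-128129549, plus strand: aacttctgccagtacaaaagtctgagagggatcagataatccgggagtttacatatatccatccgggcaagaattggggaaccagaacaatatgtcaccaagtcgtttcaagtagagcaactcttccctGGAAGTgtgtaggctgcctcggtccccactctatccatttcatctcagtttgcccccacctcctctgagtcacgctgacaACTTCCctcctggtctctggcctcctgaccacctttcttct
For Cdkn1a 2 starts are listed. The window shown is that of the start nearest the annotated start of the gene, and the other was not examined. The Cdkn1a window shown held ACATGT 2 times, starting 49 and 39 bases before the start, in a nearly symmetrical stretch. Among 32851 promoter windows of this length, 4.58% held ACATGT at least once and 0.247% at least 2 times. The Sh2b2 window held 3 GC boxes, 77, 29 and 12 bases before the start, and 32.7% of windows held at least 1. GGAAGT occurred once in the Cst7 window, 62 bases before the start, and 2 times in that of Itgax, 121 and 41 bases before it, against 19.7% of windows with at least 1.

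WT_NCD libraries held 98588561 to 217925484 counts and App_HFD libraries 64538297 to 84114322, so the latter were less deep. Mitochondrially encoded genes took 1.22% to 4.62% of the counts in WT_NCD and 2.98% to 3.75% in App_HFD. One library in neither group, App_NCD 553, stood apart, with 39.4% mitochondrial counts and 18928 genes detected against 27151 or more in the other 15. It enters the spread shared by all groups and both averaged effects, so results that it moved most, counts over gene lists among them, are given with and without it. Marker genes of other cells were present in every library. Summed levels of 16 homeostatic microglial markers ran from 4152 to 6833 counts per 1000000 (CPM) in WT_NCD and from 9448 to 15920 CPM in App_HFD. Those of 10 choroid plexus and ependymal markers ran from 24720 to 30380 CPM and from 7172 to 14900 CPM, and those of 30 myelin and mature oligodendrocyte markers from 57580 to 77530 CPM and from 49840 to 63510 CPM. In such bulk samples fewer cells of a type and less RNA per cell cannot be told apart.

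Genes were called at an adjusted p of 0.05 or less in edgeR's quasi-likelihood test over all 16 libraries. Between App_HFD and WT_NCD, 1652 of 21768 genes were called (7.59%), 1071 higher (4.92%) and 581 lower (2.67%) in App_HFD. Of these, 768 were at least 2-fold higher and 332 at least 2-fold lower. The excess of higher calls moved with the scaling and with the libraries fitted. Higher genes made up 64.8% of calls with TMM scaling, 62.2% with RLE scaling and 49.8% with library totals alone. They made up 52.2% with the 8 libraries alone and 52.4% without App_NCD 553. With scaling to the summed oligodendrocyte markers they made up 85.3%. That scaling moved the median of all genes from 0.02 to 0.24 on the log2 scale. The sum includes Enpp2, at a mean of 16530 CPM in WT_NCD and 6569 CPM in App_HFD. The part of Enpp2 in the shift was not tested. Without App_NCD 553, 4623 of 22322 genes were called (20.7%), 2422 higher (10.9%) and 2201 lower (9.86%), and all 1652 were among them in the same direction.

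The difference of each gene was split exactly into a genotype part (knock-in minus wild type, averaged over both diets) and a diet part (high fat minus control, averaged over both genotypes). The genotype part was called in 3692 genes (17.0%), 2312 higher (10.6%) and 1380 lower (6.34%). The diet part was called in 10 genes (0.0459%), all higher. Among the 1071 genes called higher in App_HFD, the median difference was 1.39 on the log2 scale, with a median genotype part of 1.45 and a median diet part of -0.04. Among the 581 called lower, the median difference was -1.07, with -0.76 from genotype and -0.29 from diet. Of the 1652 called genes, 1563 (94.6%) also had a called genotype part, 9 a called diet part (0.545%) and 82 neither. These shares follow in part from calling genes on the sum of both parts in the same libraries, and nothing is read from them.

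**Figure D1:**
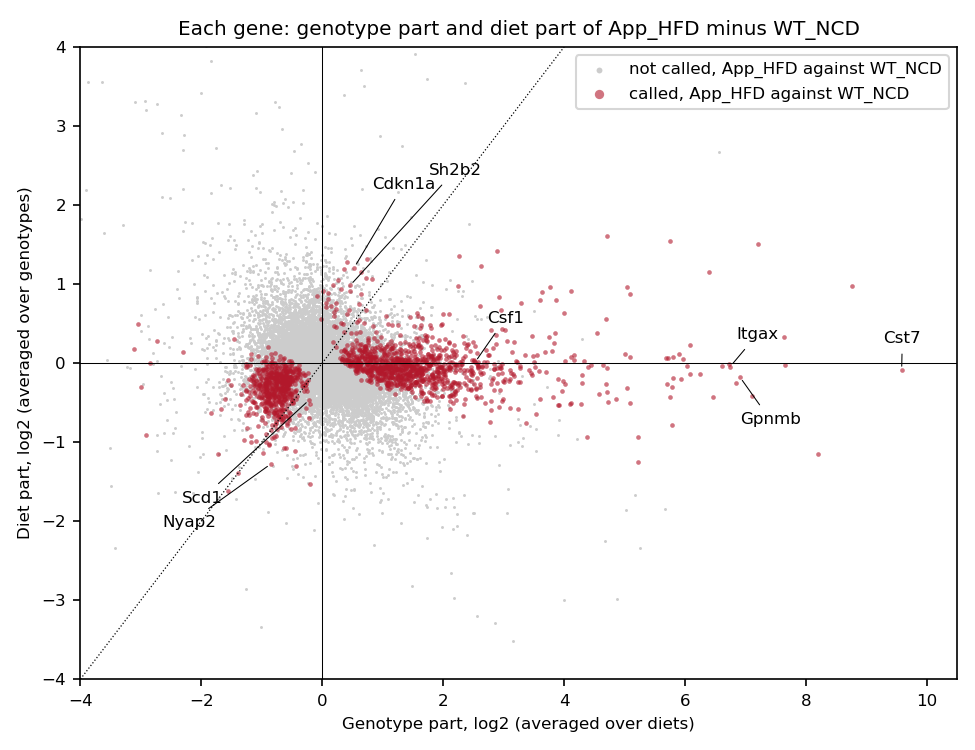
Genotype part (x axis, log2, averaged over diets) against diet part (y axis, log2, averaged over genotypes) of the App_HFD minus WT_NCD difference for each tested gene; red points were called in that difference, grey points were not, and the dotted line marks equal parts. Called genes spread along the genotype axis out to Cst7, while Cdkn1a and Sh2b2 lie above the dotted line; 33 genes lie outside the axes.

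Departure from additivity was the App_HFD difference minus the sum of the 2 single steps from WT_NCD (knock-in on the control diet and high fat in wild type). These are log2 differences, so effects that add up are fold changes that multiply. No gene was called for the departure in edgeR (0.00%), and 639 had an unadjusted p below 0.05 (2.94%). DESeq2 called 3 genes and limma-voom with quality weights 0. Without App_NCD 553 edgeR again called 0, with 614 below an unadjusted 0.05. The absence of calls does not show that effects added up everywhere. The 95% interval of the departure lay within 2-fold either way for 736 of the 1652 called genes (44.6%) and for 6905 of all tested genes (31.7%). Without App_NCD 553 it did so for 3230 of 4623 called genes (69.9%) and 12634 of all (56.6%). For the rest, the interval did not exclude a departure of 2-fold or more. It left out 0 in 62 of the 1652 called genes (3.75%).

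App itself, the gene of the amyloid precursor on the minus strand of mm10 chromosome 16, was at 2380, 3190, 4010 and 3060 CPM in WT_NCD and 2370, 2140, 2550 and 2370 CPM in App_HFD. The groups overlapped through WT_NCD 4, the lowest control. The mean log2 CPM was 0.757-fold in App_HFD (exact two-sided permutation p = 0.0571, where 0.0286 is the smallest that 4 against 4 libraries allow). Without WT_NCD 4 the log2 difference moved from -0.40 to -0.57 (exact permutation p = 0.0286), and without any other 1 of the 8 libraries the exact permutation p was 0.0571 to 0.0857. The edgeR log2 difference was -0.42 (adjusted p = 0.124, and 0.0332 without App_NCD 553), all of it in the genotype part (-0.46, adjusted p = 0.0085) with 0.03 in the diet part (adjusted p = 0.96). The knock-in changes the coding sequence under the gene's own promoter, so its RNA level is no check of the labels. Of 19 listed genes of amyloid processing, 1 rose, the α-secretase Adam17 (log2 difference 0.42, adjusted p = 0.042), and 1 fell, the γ-secretase subunit Aph1c (-0.74, adjusted p = 0.0338). Neither call was firm, since leaving out 1 library took the adjusted p of Adam17 up to 0.203 and that of Aph1c up to 0.115. Without App_NCD 553, 4 of the 19 rose and 4 fell, and with library totals alone none rose and 1 fell. Of all tested genes 4.92% rose and 2.67% fell with 16 libraries, and 10.9% and 9.86% without App_NCD 553.

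In 2 genes both parts were called with the same sign. Cdkn1a (mm10 chromosome 17, 29090976 to 29100727, plus strand) encodes p21, an inhibitor of cyclin-dependent kinases, and was at 110, 95.2, 64.6 and 104 CPM in WT_NCD and 357, 243, 300 and 345 CPM in App_HFD. It stood at 115, 240, 192 and 279 CPM in WT_HFD and at 121, 120, 156 and 118 CPM in App_NCD. All App_HFD libraries lay above all libraries of both control-diet groups, and the WT_HFD libraries above all of WT_NCD, with WT_HFD 2 only just so. The difference was 1.74 ± 0.244 on the log2 scale (SE, edgeR adjusted p = 0.000432), with 0.53 from genotype (adjusted p = 0.0422) and 1.21 from diet (adjusted p = 0.036). The single steps from WT_NCD, 0.46 for the knock-in and 1.14 for high fat, summed to 1.60, and the departure was 0.13 (95% interval -0.58 to 0.85).

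Sh2b2 (mm10 chromosome 5, 136218147 to 136246556, minus strand) encodes APS, an adaptor that binds the activated insulin receptor. It was at 25.1, 21.3, 16.8 and 23.4 CPM in WT_NCD and 66.2, 57.1, 52.5 and 59.8 CPM in App_HFD. Its levels were 31.1, 51, 41 and 54.5 CPM in WT_HFD and 40, 30.2, 33.8 and 19.7 CPM in App_NCD. App_HFD did not overlap WT_NCD, while App_NCD did through library 553. The difference was 1.44 ± 0.217 (adjusted p = 0.00077), with 0.46 from genotype (adjusted p = 0.0471) and 0.98 from diet (adjusted p = 0.0419). The single steps, 0.52 and 1.04, summed to 1.55, and the departure was -0.11 (95% interval -0.75 to 0.53).

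The App_HFD difference of Cdkn1a and of Sh2b2 passed in every alternative run, but the call of both parts at once was close to the threshold. Each gene met it in 8 of 27 settings, and with library totals alone, scaling to the oligodendrocyte markers or no filter on low counts no gene met it. Of 16 fits that each left out 1 library, 13 gave 0 such genes. The exceptions were the fits without WT_HFD 2, with 3 genes (Chrna4, Nhsl2 and Fras1), without App_HFD 559, with Cdkn1a alone, and without App_NCD 553, with 9.

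Without App_NCD 553 the genotype part was called in 7502 genes (33.6%), 3619 higher (16.2%) and 3883 lower (17.4%). The diet part was called in 57 genes (0.255%), 53 higher (0.237%) and 4 lower (0.0179%), and both parts were called with the same sign in 5 genes that rose and 4 that fell. The rising genes were Cdkn1a and Sh2b2 with Prkar1b, a regulatory subunit of protein kinase A, Znfx1, a helicase that senses viral RNA, and Rnpep, an aminopeptidase. Prkar1b was at 5.25, 4.37, 5.92 and 5.25 CPM in WT_NCD and 11.4, 11.8, 13 and 13 CPM in App_HFD. Its App_HFD difference was 1.22 in this fit (adjusted p = 4.91e-05), 0.37 from genotype (adjusted p = 0.0147) and 0.85 from diet (adjusted p = 0.00955). Znfx1 was at 117, 109, 102 and 108 CPM in WT_NCD and 205, 194, 168 and 213 CPM in App_HFD, with parts of 0.39 (adjusted p = 0.00097) and 0.43 (adjusted p = 0.0292). Rnpep was at 72.6, 63.5, 72.6 and 63.8 CPM against 124, 109, 119 and 132 CPM, with parts of 0.40 (adjusted p = 0.000603) and 0.41 (adjusted p = 0.0319). In these 3 genes no App_HFD library overlapped WT_NCD, and each was also called in the App_HFD difference with all 16 libraries (1.24, 0.84 and 0.83), Rnpep with an adjusted p of 0.0201 that reached 0.0807 without 1 library.

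The falling genes were Scd1, Sptlc3, Nyap2 and the unnamed transcript Gm32468, the last of which was not called in the App_HFD difference with all libraries (adjusted p = 0.078). Scd1 (mm10 chromosome 19, minus strand), the desaturase that makes oleic acid, was at 520, 551, 516 and 501 CPM in WT_NCD and 324, 274, 347 and 357 CPM in App_HFD. It was at 422, 389, 425 and 386 CPM in WT_HFD and 489, 437, 470 and 534 CPM in App_NCD. The WT_HFD libraries lay between the other 3 groups without overlap, below both control-diet groups and above App_HFD. Its difference was -0.68 ± 0.118 with 16 libraries (1.6-fold lower, adjusted p = 0.00206), with parts of -0.22 (adjusted p = 0.0903) and -0.47 (adjusted p = 0.0722) that did not pass singly in edgeR. Both parts passed in DESeq2 and in limma-voom. Without App_NCD 553 the parts were -0.27 (adjusted p = 0.00796) and -0.44 (adjusted p = 0.0184). With scaling to the oligodendrocyte markers the genotype part of Scd1 turned to 0.04.

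Sptlc3, a subunit of serine palmitoyltransferase, which starts sphingolipid synthesis, was at 5.17, 5.05, 4.74 and 4.78 CPM in WT_NCD and 1.91, 2.04, 1.79 and 1.91 CPM in App_HFD. The groups did not overlap, and the difference was -1.37 ± 0.176 (2.58-fold lower, adjusted p = 0.0002). Its single steps, -0.47 and -0.33, summed to -0.80, and the interval of the departure of -0.56 (-1.08 to -0.04) left out 0, though its adjusted p was 0.851. Nyap2, a neuronal adaptor of phosphoinositide 3-kinase, was low, at 3.68, 3.56, 2.54 and 1.47 CPM in WT_NCD and 0.646, 0.659, 0.642 and 0.627 CPM in App_HFD. It was 4.37-fold lower (adjusted p = 0.00102), with a departure of -0.74 (95% interval -1.69 to 0.22).

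**Figure D2:**
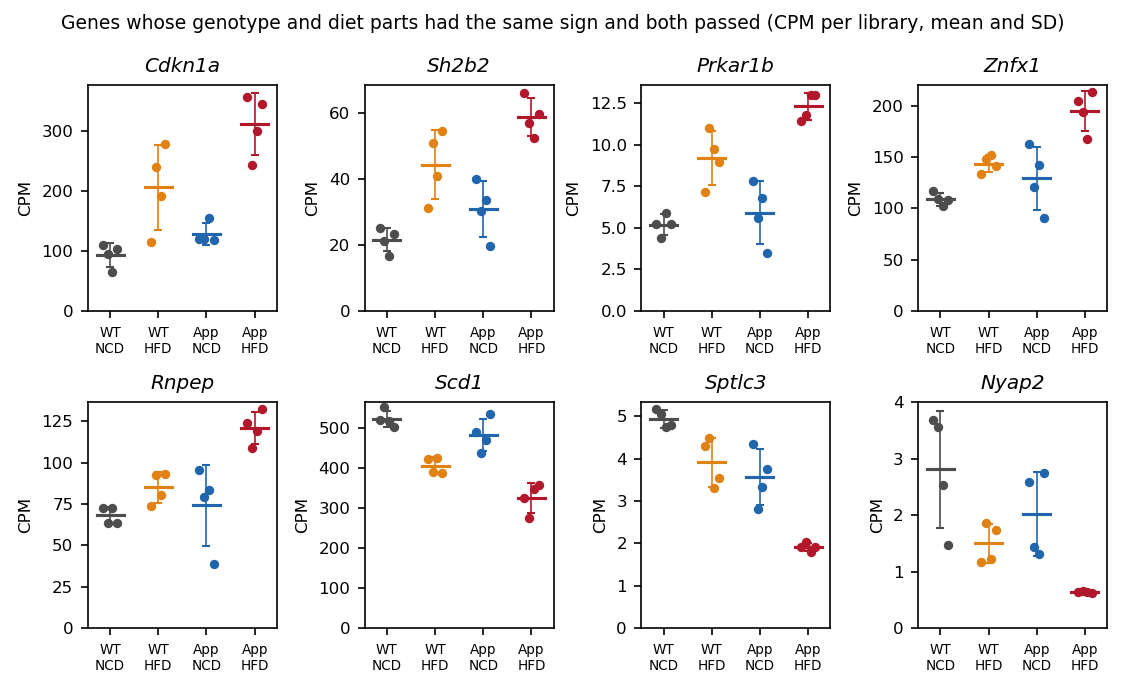
CPM of each library (points; bars show the group mean, whiskers 1 SD, n = 4) in the 4 groups, for the genes in which both parts were called with the same sign with or without App_NCD 553, other than Gm32468. In each panel all 4 App_HFD points lie on one side of all 4 WT_NCD points; Cdkn1a and Sh2b2 also rise from WT_NCD to WT_HFD, and Scd1 falls.

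The 10 genes with a called diet part were Cdkn1a, Sh2b2, Prkar1b, Pla2g3, Inpp5j, Pdxk, Ada, Gm43089, 2700046A07Rik and 9330121J05Rik, and 9 of them, all but the last, were also called higher in App_HFD. Of these 9, all but Cdkn1a and Sh2b2 had no called genotype part. Pdxk, which makes the active form of vitamin B6, was at 130, 133, 70.4 and 141 CPM in WT_NCD and 250, 217, 186 and 288 CPM in App_HFD. It was 1.98-fold higher (adjusted p = 0.00775), with 0.10 from genotype (adjusted p = 0.683) and 0.89 from diet (adjusted p = 0.0451). Ada, adenosine deaminase, rose from 13.3, 12.1, 8.72 and 12.3 CPM to 21.1, 19.1, 15.8 and 23.3 CPM (1.71-fold, adjusted p = 0.016, and up to 0.0715 without 1 library), with -0.08 from genotype and 0.85 from diet. In both genes no App_HFD library overlapped WT_NCD.

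Pla2g3, a secreted phospholipase A2, was 2.48-fold higher in App_HFD (adjusted p = 0.0039) and Inpp5j, an inositol phosphate phosphatase, 1.7-fold higher (adjusted p = 0.00724). Their annotated spans on chromosome 11 overlap by 4976 bases on opposite strands. The libraries were directional, but whether counting used the strand is not given in the sources used here, so the 2 genes are not separate evidence. Likewise 9330121J05Rik is an antisense transcript that overlaps Arhgef26 on the opposite strand by 2189 bases. It was the sole gene whose parts were both called with opposite signs with 16 libraries, -0.99 from genotype (adjusted p = 0.0188) and 1.77 from diet (adjusted p = 0.0419). Its level was 0.572 CPM or less in every library, its App_HFD difference was 0.77 (adjusted p = 0.26), and its departure was 1.78 (95% interval 0.62 to 2.93, adjusted p = 0.851). Other genes named above also overlap tested genes on the opposite strand. These are Sptlc3 (Gm14066, by 143762 bases), Rnpep (Gm26642, 3732), Pdxk (4921516A02Rik, 2104), Gm43089 (Gm42756, 1213) and Znfx1 (Zfas1, 82). Prkar1b overlaps Gm15672 on the same strand by 2426 bases. The counts of these genes are uncertain as well.

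Without App_NCD 553 opposite signs were called in 4 further genes: Klf15 and Arrdc2, both induced by glucocorticoids, Slc35e4, a solute carrier, and Syde2, a GTPase activator. Klf15 was at 84.8, 79.9, 74.6 and 76.7 CPM in WT_NCD and 82.9, 78.5, 76.6 and 73.6 CPM in App_HFD, 2 ranges that overlapped almost fully. In WT_HFD it was at 87.3, 99.2, 98.6 and 82.6 CPM, and in App_NCD at 55.4, 55.7, 58.7 and 71.7 CPM. The genotype part without App_NCD 553 was -0.39 (adjusted p = 9.75e-05), the diet part 0.34 (adjusted p = 0.0213), and the App_HFD difference -0.04 (adjusted p = 0.734). Arrdc2 had parts of -0.30 (adjusted p = 0.00618) and 0.45 (adjusted p = 0.0263), and Slc35e4 of -0.30 (adjusted p = 0.00276) and 0.42 (adjusted p = 0.0184). Syde2 had -0.53 (adjusted p = 0.000139) and 0.46 (adjusted p = 0.0269). None of the 4 was called between App_HFD and WT_NCD, so a comparison of these 2 groups alone does not show them.

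**Figure D3:**
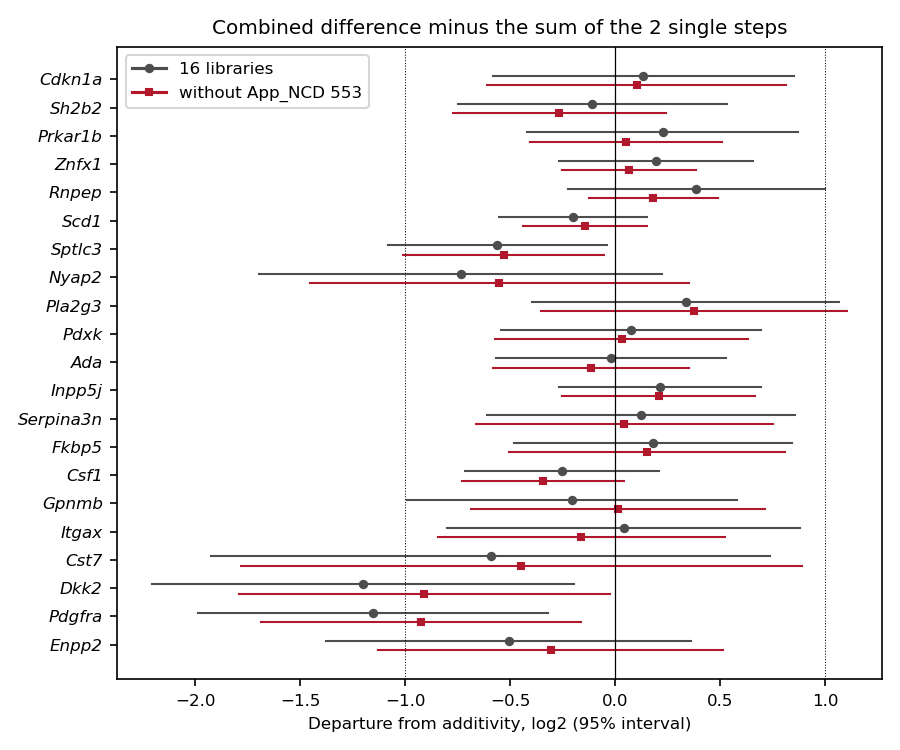
Departure from additivity on the log2 scale (points) with its 95% interval (lines) for named genes, from the fit of 16 libraries (grey circles) and without App_NCD 553 (red squares); dotted lines mark 2-fold either way. With 16 libraries the intervals of Cdkn1a and Sh2b2 lie within the dotted lines and hold 0. Those of Sptlc3, Dkk2 and Pdgfra lie below 0 and, like that of Cst7, reach past 2-fold.

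Genes of plaque-associated microglia were far higher in App_HFD, and Cst7, Gpnmb, Itgax, Dkk2, Spp1 and Lpl were among the 12 highest genes. Of 30 listed genes, 26 rose and none fell, with a median log2 difference of 2.54 against 0.02 over all tested genes. Shares over all tested genes were 4.92% higher and 2.67% lower. Cst7, a cystatin of lysosomes, was at 1.5, 0.985, 0.359 and 1.08 CPM in WT_NCD and 816, 930, 582 and 512 CPM in App_HFD, and App_NCD held 807, 855, 888 and 1170 CPM. Both App groups lay far above both wild-type groups, and the App_HFD difference of 9.49 ± 0.624 (adjusted p = 2.49e-07) came with a diet part of -0.09 (adjusted p = 0.96). Itgax, the integrin CD11c, rose from 9.26, 4.6, 5.22 and 5.56 CPM to 699, 800, 558 and 508 CPM (log2 difference 6.70, adjusted p = 3.98e-08). Gpnmb, a glycoprotein of phagocytes, rose from 5.96, 3.55, 2.83 and 2.71 CPM to 396, 520, 389 and 298 CPM (6.73, adjusted p = 1.9e-08). Csf1, a growth factor for microglia that oligodendrocyte lineage cells also make, rose from 87.2, 100, 87.4 and 104 CPM to 605, 623, 524 and 449 CPM (5.81-fold, adjusted p = 1.89e-07).

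Cst7, Itgax, Gpnmb and Csf1 had no called diet part, and the departure intervals were narrow for Csf1 (-0.71 to 0.21) and Itgax (-0.80 to 0.88). That of Cst7 ran from -1.92 to 0.74, so its interval reached below the sum by more than 2-fold. Of the 12 highest genes, the interval left out 0 in Dkk2, a Wnt antagonist (-1.20, -2.20 to -0.19), and Atp6v0d2, a subunit of the lysosomal proton pump (-2.62, -5.07 to -0.17), each with an adjusted p of 0.851. Without App_NCD 553 the interval of Atp6v0d2 held 0 (-4.31 to 0.29). The diet part was called in 0 of the 30 plaque-associated genes, against 0.0459% of all tested genes, so nothing is read from its absence.

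Of 35 lysosomal genes, 24 rose and none fell (25 and 1 without App_NCD 553), with a median of 1.08. Among them were the cathepsins Ctsz (2.48, adjusted p = 1.04e-06) and Ctsb (2.00, adjusted p = 9.33e-05). Shares over all tested genes were 4.92% higher and 2.67% lower, or 10.9% and 9.86% without App_NCD 553. Of 16 homeostatic microglial markers 9 rose and none fell (13 rose without App_NCD 553 and 4 with library totals alone), with a median of 1.08. C1qb, a subunit of complement C1q, was at 565, 281, 278 and 288 CPM in WT_NCD and 1520, 1380, 1040 and 819 CPM in App_HFD (1.75, adjusted p = 0.00155), and Cx3cr1, the fractalkine receptor, rose by 0.94 (adjusted p = 0.0285, and up to 0.116 without 1 library). None of 8 border macrophage markers passed in either direction (median 0.02), and their summed level was 755 to 1225 CPM in WT_NCD and 849 to 1021 CPM in App_HFD. The part of the higher microglial marker level in the App_HFD differences was not tested.

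Of 26 chemokines and cytokines 13 rose and none fell (median 1.57; 15 and 1 without App_NCD 553), among them Tnf, from 45.3, 22.9, 19 and 24.4 CPM to 236, 301, 204 and 162 CPM (3.02, adjusted p = 8.28e-05). Of 19 complement genes 8 rose and 2 fell, against 5 and 2 with library totals alone. C1s1, a serine protease of complement C1, fell from 5.01, 3.79, 2.94 and 3.18 CPM to 1.45, 1.44, 1.6 and 1.45 CPM (-1.33, adjusted p = 0.00129). Cd59a, an inhibitor of the membrane attack complex, fell by 0.86 on the log2 scale (adjusted p = 0.0137, and up to 0.0517 without 1 library). Of 25 interferon-response genes 8 rose and none fell (median 0.84), with 16 higher without App_NCD 553 and 3 with library totals alone. Of 16 MHC class I genes 8 rose and none fell (median 1.27) and of 8 class II genes 3 rose. Without App_NCD 553 15 and 6 rose, and with library totals alone 1 and 1. Class I genes are near-identical, and their counts can be split between copies. Shares over all tested genes were 4.92% higher and 2.67% lower, or 10.9% and 9.86% without App_NCD 553. None of these 5 lists held a gene with a called diet part. Of all tested genes 0.0459% had such a call, so nothing is read from its absence.

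Genes of the disease-associated oligodendrocyte state rose in 8 of 20 cases and fell in none (12 and 1 without App_NCD 553), with a median of 0.81. Shares over all tested genes were 4.92% higher and 2.67% lower, or 10.9% and 9.86% without App_NCD 553. Serpina3n, a serine protease inhibitor that defines the state, was at 25.2, 17, 8.72 and 15.8 CPM in WT_NCD and 50.9, 40.7, 46.4 and 62.4 CPM in App_HFD. It was at 20.3, 24.3, 24.7 and 21 CPM in WT_HFD and 39.4, 30.9, 38.1 and 27.8 CPM in App_NCD, so the App_HFD libraries lay above those of all other groups. The difference was 1.59 ± 0.249 (adjusted p = 0.00109), with 1.09 from genotype (adjusted p = 0.000413) and 0.50 from diet (adjusted p = 0.648), a diet part that did not pass in edgeR. In limma-voom both parts passed. Egr2, a transcription factor, rose from 9.95, 6.61, 6.68 and 7.31 CPM to 34.8, 32.1, 30 and 27.8 CPM (2.03, adjusted p = 6.35e-06), with a diet part of 0.10. Sgk3, a kinase downstream of phosphoinositide 3-kinase, rose 1.99-fold (adjusted p = 0.00729). Its parts were 0.23 from genotype (adjusted p = 0.314) and 0.76 from diet (adjusted p = 0.103, and 0.0252 without App_NCD 553), unlike those of Egr2. H2-D1 and H2-K1 are members of this list as well as of the class I list.

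**Figure D4:**
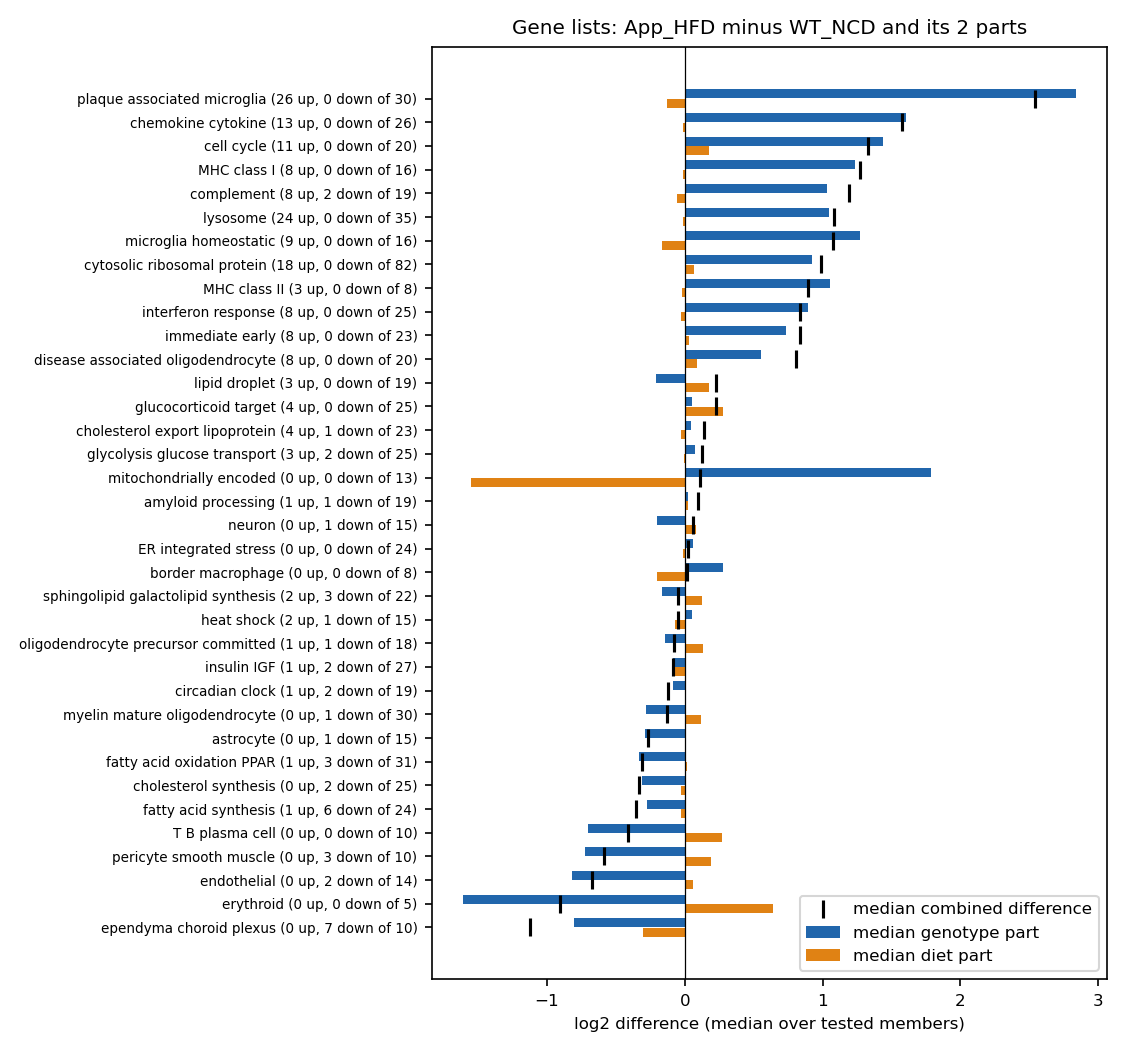
Median log2 difference between App_HFD and WT_NCD over the tested members of each gene list (black ticks), with the median genotype part (blue bars) and diet part (orange bars); labels give the numbers called higher and lower of those tested. Immune lists lie to the right with diet bars near 0, choroid plexus and vascular lists to the left; the opposed bars of the mitochondrially encoded list rest on App_NCD 553.

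Of 30 myelin and mature oligodendrocyte genes, 1 fell and none rose, with a median of -0.13, a share near that of all genes. Without App_NCD 553, 2 fell, and the genotype part was called lower in 10 of the 30, against 9.86% and 17.4% of all tested genes. The gene that fell was Enpp2, autotaxin, which mature oligodendrocytes and choroid plexus both express. It was at 14400, 15400, 22400 and 13900 CPM in WT_NCD and 5380, 6460, 8700 and 5740 CPM in App_HFD (2.52-fold lower, adjusted p = 0.0104), with no overlap.

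Of 18 genes of precursors and committed cells, Cspg4 rose and Pdgfra fell, while of all tested genes 4.92% rose and 2.67% fell. Cspg4, the proteoglycan NG2, which pericytes also express, was at 11.4, 8.85, 10.7 and 11.5 CPM in WT_NCD and 42.9, 64.3, 50.5 and 42 CPM in App_HFD (2.23, adjusted p = 0.00501). In App_NCD it was at 64, 46.6, 45.5 and 6.98 CPM, where library 553 was below every wild-type library (7.92 to 14.4 CPM). Pdgfra, the receptor that defines precursors, was at 24, 19.6, 30.6 and 21.5 CPM in WT_NCD and 10, 11.7, 13.6 and 11.5 CPM in App_HFD (2.04-fold lower, adjusted p = 0.0337). The call of Pdgfra was lost with scaling to the oligodendrocyte markers (-0.79) and in 6 of the 16 fits without 1 library (adjusted p up to 0.114). Its single steps, -0.31 and 0.43, summed to 0.12, and the departure was -1.15 (95% interval -1.99 to -0.32, adjusted p = 0.851). WT_HFD 2, at 54.1 CPM against 20.9 to 27.5 CPM in the other WT_HFD libraries, entered that sum.

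Of 24 fatty acid synthesis genes 6 fell and 1 rose (median -0.35), and of 25 cholesterol synthesis genes 2 fell and none rose (median -0.33). Among all tested genes 2.67% fell and 4.92% rose. Without App_NCD 553, 12 and 14 fell, against 9.86% of all genes. With scaling to the oligodendrocyte markers none of either list fell and the medians were -0.13 and -0.09. With both changes 5 fatty acid synthesis genes fell and 4 rose, and no cholesterol synthesis gene fell and 1 rose. Sqle, squalene epoxidase, was at 73.1, 64.4, 69.4 and 64.9 CPM in WT_NCD and 41.6, 45.1, 46.4 and 50.6 CPM in App_HFD (-0.56, adjusted p = 0.00575), with -0.41 from genotype and -0.15 from diet. Fads3, a desaturase, fell by 1.23 (adjusted p = 0.00634), Acacb, the acetyl-CoA carboxylase of mitochondria, by 1.21 (adjusted p = 0.00726) and the elongase Elovl6 by 0.61 (adjusted p = 0.0189, and up to 0.0629 without 1 library) on the log2 scale. The one that rose was Mlxipl, the carbohydrate-responsive factor ChREBP (1.28, adjusted p = 0.0132, and up to 0.0586 without 1 library). Choroid plexus marker levels, given above, were lower in the same libraries, and their part in the lower lipid genes was not tested. The genotype part was the larger in Fads3 (-0.93, with -0.31 from diet) and Acacb (-1.02, with -0.19), the diet part in Scd1.

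Of 31 genes of fatty acid oxidation and its PPAR targets 3 fell and 1 rose (median -0.31), and without App_NCD 553 16 fell and 2 rose. Shares over all tested genes were 2.67% lower and 4.92% higher, or 9.86% and 10.9% without App_NCD 553. Ucp2, a mitochondrial carrier that microglia express, rose by 1.20 (adjusted p = 0.00132), and Acaa2, a thiolase, fell by 1.14 (adjusted p = 0.00403). Of 19 lipid droplet genes 3 rose and none fell, against 7 and 3 without App_NCD 553 and 1 and none with library totals alone, and the parts differed among the 3. Plin2, which coats droplets of phagocytes, rose from 33.1, 21.3, 22.3 and 19.7 CPM to 64.9, 79, 57 and 51.9 CPM (1.39, adjusted p = 0.000402), 1.48 from genotype and -0.09 from diet. Plin4 rose from 266, 296, 187 and 274 CPM to 524, 373, 644 and 756 CPM (1.17, adjusted p = 0.0298, and up to 0.118 without 1 library), 0.18 from genotype (adjusted p = 0.625) and 0.99 from diet (adjusted p = 0.234). Pnpla2, the triglyceride lipase ATGL, rose from 91.9, 86.5, 105 and 90.6 CPM to 134, 124, 138 and 144 CPM (0.53, adjusted p = 0.0374, and up to 0.147 without 1 library), -0.03 from genotype and 0.55 from diet (adjusted p = 0.103, and 0.0213 without App_NCD 553).

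Of 25 glucocorticoid targets, genes that cortisol-like hormones of the adrenal gland induce in many tissues, 4 rose and none fell in App_HFD (median 0.22, with 6 higher without App_NCD 553 and 2 with library totals alone), and the diet part was called in 1, Cdkn1a (3 without App_NCD 553), with a median of 0.28 against 0.01 over all genes. Fkbp5, a chaperone of the glucocorticoid receptor, was at 146, 103, 71.8 and 88.5 CPM in WT_NCD and 256, 261, 175 and 253 CPM in App_HFD, without overlap. Its difference was 1.21 ± 0.223 (adjusted p = 0.00346), with 0.69 from genotype (adjusted p = 0.00579) and 0.51 from diet (adjusted p = 0.552). Both parts of Fkbp5 passed in limma-voom. Plin4 and Dusp1, a phosphatase that is also an immediate early gene, were the others that rose, Dusp1 with an adjusted p of up to 0.109 without 1 library. The hour of sampling is not in the labels. Of 18 textbook p53 targets other than Cdkn1a, a list made after Cdkn1a was seen, 1 rose (Btg2, 1.33, adjusted p = 0.0155, and up to 0.0665 without 1 library, also an immediate early gene), 1 fell (Perp, -0.81, adjusted p = 0.0377, and up to 0.111 without 1 library) and none had a called diet part. Over all tested genes 4.92% rose, 2.67% fell and 0.0459% had a called diet part.

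Several markers of choroid plexus and vessels fell in App_HFD, while over all tested genes 4.92% rose and 2.67% fell (10.9% and 9.86% without App_NCD 553). In edgeR with 16 libraries no gene of the lists below had a called diet part, against 0.0459% of all tested genes. Limma-voom called the diet part of Kcnj13. Of 10 choroid plexus and ependymal genes 7 fell (median -1.13), against 8 without App_NCD 553, 4 with library totals alone and 3 with scaling to the oligodendrocyte markers. Ttr, transthyretin, fell from 27900, 26500, 22400 and 23400 CPM to 10100, 10700, 13600 and 6440 CPM (2.45-fold, adjusted p = 0.0127), and the potassium channel Kcnj13 from 182, 171, 178 and 170 CPM to 53.4, 65.9, 79.9 and 44.6 CPM (adjusted p = 0.00764). No library of either group overlapped the other in these genes. Of 14 endothelial genes 2 fell (median -0.67) and of 10 pericyte and smooth muscle genes 3 fell (median -0.59). Without App_NCD 553 7 and 4 fell, with scaling to the oligodendrocyte markers none, and with both changes 1 and 3. Acta2, smooth muscle actin, fell from 25, 31.4, 26 and 29.1 CPM to 15.4, 14.6, 17.5 and 11.5 CPM (adjusted p = 0.00896). The endothelial gene Vwf (adjusted p = 0.0469) rested on WT_NCD 4, at 121 CPM against 15.6 to 29.6 CPM in the other controls, and without it the difference moved from -1.78 to -0.83 (adjusted p = 0.198). Of 15 astrocyte genes 1 fell (3 without App_NCD 553), Clu, the apolipoprotein clusterin (-1.11, adjusted p = 0.00504), and of 15 neuronal genes 1 fell, the neurofilament Nefh (-1.73, adjusted p = 0.0404, and up to 0.116 without 1 library), shares near that of all genes. The median of the neuronal genes was 0.06. None of 5 erythroid and 10 lymphoid markers passed.

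**Figure D5:**
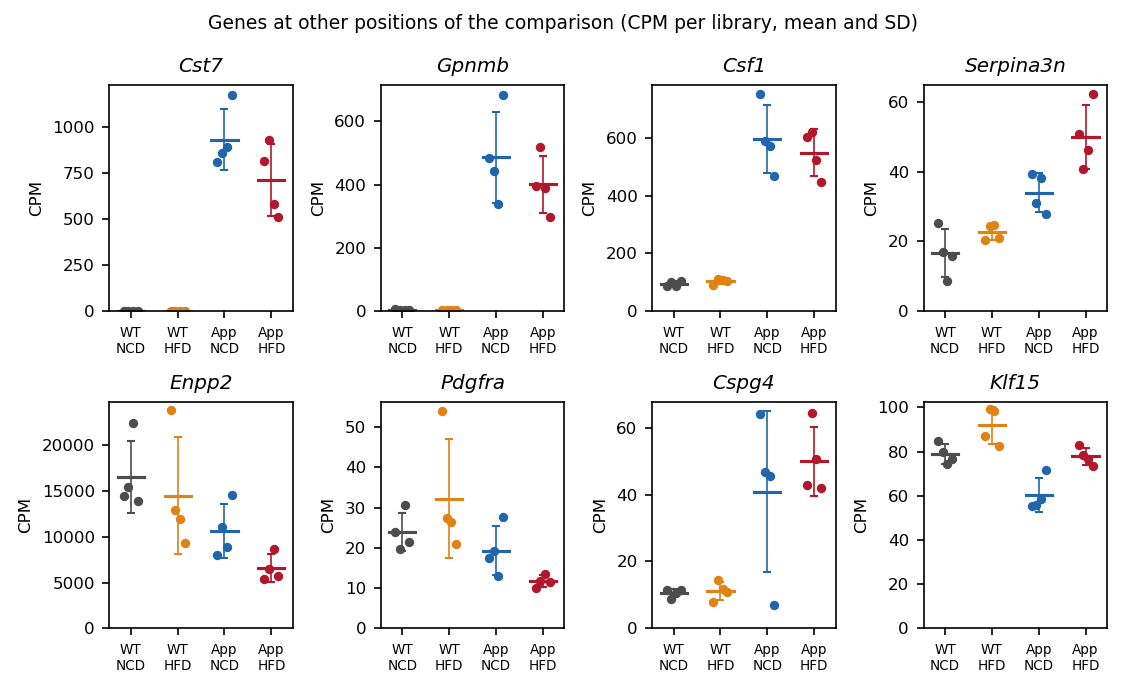
CPM of each library (points; bars show the group mean, whiskers 1 SD, n = 4) for genes at other positions of the comparison. Cst7, Gpnmb and Csf1 are high in both App groups; Serpina3n is highest in App_HFD; Klf15 is lowest in App_NCD and alike in WT_NCD and App_HFD.

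Of the 12 lowest genes, Chrna4 and Loxl2 are given as examples, chosen after their values were seen. Chrna4, a subunit of the nicotinic acetylcholine receptor, was at 11.7, 6.9, 8.08 and 6.89 CPM in WT_NCD and 2.27, 2.76, 2.29 and 1.66 CPM in App_HFD (3.74-fold lower, adjusted p = 0.00204). Its parts were -0.88 from genotype (adjusted p = 0.0126) and -1.02 from diet (adjusted p = 0.238), and its departure interval, -1.94 to -0.04, left out 0, while without App_NCD 553 it held 0 (-1.91 to 0.02). Loxl2, a collagen cross-linking enzyme, was at 6.23, 7.34, 7.59 and 5.01 CPM against 1.99, 1.55, 2.34 and 1.53 CPM (3.54-fold lower, adjusted p = 0.00183), with -0.92 from genotype (adjusted p = 0.00675) and -0.90 from diet (adjusted p = 0.315), or -1.16 and -0.69 without App_NCD 553. In neither gene did the groups overlap, and in neither did the diet part pass in edgeR with 16 libraries or without App_NCD 553. In DESeq2 and limma-voom both parts of both genes were called with the same sign, as were those of Chrna4 in edgeR without WT_HFD 2.

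Of 20 cell cycle genes 11 rose and none fell (median 1.33), at low levels. Top2a, the topoisomerase of dividing cells, was at 5.34, 2.12, 3.65 and 3.17 CPM in WT_NCD and 15.6, 24.3, 14 and 18.2 CPM in App_HFD (2.33, adjusted p = 0.005), so it rose in the same libraries as the cell cycle inhibitor Cdkn1a, but with 2.03 from genotype and 0.31 from diet (adjusted p = 0.86). Of 23 immediate early genes 8 rose and none fell (median 0.84), with 16 higher without App_NCD 553 and 2 with library totals alone. Of 82 ribosomal protein genes 18 rose and none fell (median 0.99), such as Rpl5 (1.10, adjusted p = 0.0008). Without App_NCD 553 54 rose, and with library totals alone 10; these genes have many near-identical pseudogenes, so their counts are uncertain. No gene of endoplasmic reticulum and integrated stress responses passed of 24 (2 rose without App_NCD 553), nor any of 13 mitochondrially encoded genes (median 0.11). Of 27 insulin and IGF pathway genes 1 rose, Igf1 (3.75, adjusted p = 4.39e-07), and 2 fell, Grb10 (-1.04, adjusted p = 0.0107) and Igf2r (-0.93, adjusted p = 0.0195, and up to 0.0731 without 1 library). Without App_NCD 553, 4 rose and 7 fell, against 10.9% and 9.86% of all tested genes (4.92% and 2.67% with 16 libraries). Sh2b2 was not on that list.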

How the data were processed

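Each deposited value is an estimated count of 1 gene in 1 library. Per the submitters' processing notes the authors used fastp 0.23.2, HISAT2 2.2.1, StringTie 2.2.1 and bedtools 2.25.0 with build mm10, and all values were whole numbers. StringTie may share reads out among overlapping genes or close copies. The annotation and the use of strand in counting are not given in the sources used here. Of 53801 gene IDs, 53620 (99.7%) were in the GENCODE mouse annotation at hand, from which coordinates (mm10) were taken.

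All 16 libraries were fitted in 4 groups with edgeR 4.0.16 (filterByExpr, TMM, robust quasi-likelihood test) in R 4.3.3, with limma 3.58.1. P-values were adjusted by Benjamini-Hochberg over all 21768 genes tested, with 0.05 as the threshold. Contrasts were App_HFD minus WT_NCD, genotype averaged over diets, diet averaged over genotypes and the departure from additivity, and the first is the sum of the next 2. Log2 differences are fitted values whose standard errors come from the difference and its F value. CPM is scaled by TMM-adjusted totals, with a prior count of 0.5 for log2 CPM. Genes are said to add up where both averaged parts passed with the same sign, and to oppose where the signs differed. This rule does not require the departure to be small. The App level was compared by an exact permutation test.

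The comparison, the 36 gene lists, the named-gene rule and the tests were chosen with earlier results of these data known. The rule took App, the 12 highest and 12 lowest called genes of at least 1 CPM, genes that add up or oppose (also without App_NCD 553), the 10 smallest p for the departure, and up to 6 called members of each list, or up to 4 by level where none passed. The text describes fewer. Outside the rule, and chosen after their values were seen, are Cd59a, Perp, Nhsl2, Fras1, Gm32468 and the genes with a called diet part that neither add up nor oppose with a proper symbol (Pla2g3, Inpp5j, Pdxk, Ada, Gm43089, 2700046A07Rik and 9330121J05Rik).

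Each title carries its own number, but no label says outright that libraries are separate mice, so p-values measure the spread between these samples, which may be technical. No batch or litter is given. The scripts were tested on simulated data. Alternatives were DESeq2 1.42.0, limma-voom, 3 other scalings, 2 other filters, non-robust dispersions, the 8 libraries alone, a 2-fold threshold and each library left out. Fits without App_NCD 553 under 2 other scalings were added after seeing the data.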

Additional observations from a re-analysis of the deposited data

Results flagged for a closer look

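Within-group gaps were examined in 296 sets of 4 libraries, and 27 held a library far from the other 3 by Dixon's criterion, where chance gives about 1 in 20. App_NCD 553 stood apart by 18928 genes detected, by 39.4% mitochondrial counts, by high levels of Atp6v0d2 (63.8 CPM), Kcnj13 (264 CPM), Mlxipl (92.8 CPM) and Syde2 (14.5 CPM) and by a low level of H2-D1 (188 CPM). In the same group Cdkn1a was high in App_NCD 545 (156 CPM), where Sqle was low (43.7 CPM), and Rpl5 was low in App_NCD 537 (322 CPM).

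Among the libraries compared, Fkbp5 was low in App_HFD 560 (175 CPM), where C1s1 was high (1.6 CPM). WT_NCD 4 was high in C1qb (565 CPM), H2-D1 (218 CPM), Btg2 (244 CPM) and Vwf (121 CPM). WT_NCD 11 was high in Acacb (74.3 CPM) and Clu (2230 CPM) and low in Pdxk (70.4 CPM) and 9330121J05Rik (0.12 CPM).

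In WT_HFD, library 16 was high in C1qb (425 CPM), H2-D1 (195 CPM), H2-K1 (160 CPM), Mlxipl (19.6 CPM) and Top2a (11.2 CPM), library 15 was low in Gpnmb (2.97 CPM), and library 2 was high in Nefh (8.94 CPM).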

How the results depend on the processing

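No paired analysis was possible because the groups share none of their replicate numbers. Of 70 named genes, 64 were called between App_HFD and WT_NCD; all 64 kept their direction in every alternative run, 34 passed in every one, and 17 lost their call in at least 1 of the 16 fits without 1 library.

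Between App_HFD and WT_NCD 2670 genes were called with DESeq2 and 6917 with limma-voom with quality weights. The number was 4395 with the 8 libraries alone and 1100 with a 2-fold threshold. Without App_NCD 553 it was 3901 with scaling to the oligodendrocyte markers and 4883 with library totals. Leaving out 1 library gave 971 (without App_HFD 547) to 4623 (without App_NCD 553). It was 1010 without App_HFD 559, 1028 without WT_NCD 5, 1050 without WT_NCD 11 and 1100 without WT_NCD 12, and within 1.5 times in the other 10 fits. The genotype part was called in 10161 genes with limma-voom, 1530 with a 2-fold threshold, and, without App_NCD 553, 9037 with oligodendrocyte scaling and 8297 with library totals (2869 to 7502 without 1 library).

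The diet part was called in 111 genes with DESeq2, 511 with limma-voom, 3 with a 2-fold threshold and 0 with library totals, oligodendrocyte scaling or no filter. Without App_NCD 553 it was called in 0 with oligodendrocyte scaling and 36 with library totals, and it was 0 to 57 without 1 library, with 0 in 12 of 16 fits. Genes that add up numbered 20 with DESeq2, 83 with limma-voom with quality weights and 0 with library totals, oligodendrocyte scaling or no filter. Without App_NCD 553 they numbered 0 with oligodendrocyte scaling and 5 with library totals, and 0 to 9 without 1 library. Departure calls numbered 3 with DESeq2 and 0 in every edgeR fit without 1 library. The cause of these shifts was not tested.

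With oligodendrocyte scaling, the App_HFD difference of Klf15 moved from -0.02 to 0.205, that of Syde2 from -0.04 to 0.187, and the genotype part of Scd1 from -0.22 to 0.039. Without App_NCD 553 under that scaling they were 0.205, 0.186 and 0.075. The App level ran from -0.565 to -0.311 without 1 library. The median standard error of the departure, 0.46 on the log2 scale, limits what 4 libraries a group can show.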
